A study of Mus musculus with 12 samples.

Results

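The cytosolic ribosomal proteins are the proteins of the ribosomes that translate nuclear messages, as opposed to those of the mitochondrial ribosome. The family was taken as every gene symbol in both deposited tables that begins with Rpl or Rps and a number, together with Rplp0, Rplp1, Rplp2 and Rpsa. The Rps6k kinases and symbols carrying -ps were left out, and a mean of at least 1 FPKM (fragments per kilobase of transcript, scaled to the mapped fragments of the library) was required in the table. The rule matched 88 symbols in the table of H-Ras(G12V) and mCherry libraries and 89 in that of etoposide and DMSO libraries. The same 85 genes reached the level in both tables, among 12724 and 12371 genes at that level. They comprise 51 genes of the large subunit and 34 of the small subunit. Just inside the threshold lay Rpl37rt, with table means of 3.35 and 3.28 FPKM, and no matching gene outside it exceeded a table mean of 0.213 FPKM. The genes outside were Rpl3l, Rps23rg1 and Rpl39l in both tables and Rpl10l in the etoposide and DMSO table.

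Of the 85 members, 77 are core genes that each encode a standing ribosome component. The other 8 are Rps27l, Rpl22l1, Rpl36al and Rpl7l1, which are expressed relatives of core genes, the copies Rps27rt, Rpl37rt and Rpl32l, and Rps19bp1. Rps19bp1 meets the naming rule but encodes a protein that binds Rps19, not a ribosomal protein.

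Ribosomal proteins are made in the cytoplasm, carried to the nucleolus and assembled there with ribosomal RNA, usually with a single copy of each protein per subunit. Their messages typically begin with a C followed by a run of pyrimidines, the TOP element, through which the kinase complex mTORC1 and the RNA-binding protein LARP1 control their translation as a set. Ribosomal proteins that are not built into subunits can act outside the ribosome: Rpl5 and Rpl11, for example, bind Mdm2, the ligase that marks p53 for destruction. In neurons ribosomes lie in axons and dendrites as well as in the cell body, and some ribosomal protein messages are translated locally.

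The study modelled ageing of neurons in culture in 2 ways, with 12 libraries from cultured primary neurons of C57BL/6 mice, taken at day 10. In the oncogene model, an adeno-associated virus over-expressed H-Ras(G12V), a constitutively active H-Ras (3 libraries). Its controls were mCherry cultures of genotype WT (3 libraries). In the chemical model, cultures of genotype WT received etoposide, a topoisomerase II poison (3 libraries), or its solvent DMSO (3 libraries). The sources used here do not give the promoter that drives the transgene, the etoposide dose, the brain region or the age of the mice. Nor do the labels tell separate cultures from repeat libraries, so each p-value reflects the spread among libraries only, and that spread may be technical.

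For the etoposide and DMSO libraries, the treatment tag names the opposite group to the title. The titles, which the column names of the table follow, were used here, and directions apply to the libraries so titled. Etoposide library 3 stood apart from its group: over all tested genes its rank correlation was 0.811 and 0.881 with etoposide libraries 1 and 2, and 0.931 to 0.979 with the 3 DMSO libraries. Among the controls of the other model, mCherry libraries 1 and 2 correlated at 0.997, against 0.929 and 0.925 for each with mCherry library 3. Hras itself averaged 41.2 ± 9.39 FPKM in H-Ras(G12V) cultures and 44.4 ± 1.49 FPKM in mCherry cultures (SD, n = 3 each; limma adjusted p = 0.62), so its level gives no check of these labels. The neuron markers summed to 1915 to 2241 FPKM in H-Ras(G12V) libraries, against 2658 to 3249 FPKM in mCherry libraries. In the other table they summed to 968 to 3497 FPKM in etoposide libraries, against 2760 to 3078 FPKM in DMSO libraries.

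The starts of some members are shown here because the TOP element is the best known common feature of these genes and because 2 of them are near-identical. Sequences are those of RefSeq for build GRCm38.p6, from 30 bases before the annotated start to 25 bases from it. Capitals mark the pyrimidine run that begins with a C at the start, or else the heptamer CCGGAAG, the core bound by ETS-family transcription factors. The first group begins with a TOP element. Rplp2 lies at chr7:141447621-141447675 (+), Rps6 at chr4:86857343-86857397 (-), Rpl28 at chr7:4792935-4792989 (+), Rps27 at chr3:90213624-90213678 (-) and its copy Rps27rt at chr9:114982715-114982769 (-).
Rplp2: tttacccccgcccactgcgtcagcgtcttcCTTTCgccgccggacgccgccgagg
Rps6: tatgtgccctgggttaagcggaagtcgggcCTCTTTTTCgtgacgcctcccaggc
Rpl28: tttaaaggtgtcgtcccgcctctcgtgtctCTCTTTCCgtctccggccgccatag
Rps27: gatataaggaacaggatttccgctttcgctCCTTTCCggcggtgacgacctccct
Rps27rt: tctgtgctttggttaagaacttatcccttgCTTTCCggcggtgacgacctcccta

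The second group carries the CCGGAAG core beside the start but no TOP element at the annotated base. Rpl11 lies at chr4:136053369-136053423 (-), Rpl26 at chr11:68901536-68901590 (+) and Rps27l at chr9:66946056-66946110 (+).
Rpl11: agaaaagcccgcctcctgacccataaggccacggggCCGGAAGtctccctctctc
Rpl26: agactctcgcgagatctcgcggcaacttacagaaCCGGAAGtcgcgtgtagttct
Rps27l: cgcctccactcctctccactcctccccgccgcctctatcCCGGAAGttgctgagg

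The third group has neither at the annotated start and is shown for comparison, since its members had small H-Ras(G12V) changes. Because they were picked by that change, they do not relate starts to changes. Over all members with a listed start, the median H-Ras(G12V) change was 0.46 with a TOP start and 0.55 without. With and without CCGGAAG it was 0.54 and 0.55. The members with a TOP start include Rps27, Rps27rt and Rpl32l, whose values are uncertain for reasons given below. Rpl22l1 lies at chr3:28805478-28805532 (+), Rpl7l1 at chr17:46782632-46782686 (-) and Rps19bp1 at chr15:80264282-80264336 (-).
Rpl22l1: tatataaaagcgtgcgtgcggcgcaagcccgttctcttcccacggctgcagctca
Rpl7l1: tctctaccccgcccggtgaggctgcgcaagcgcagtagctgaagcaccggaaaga
Rps19bp1: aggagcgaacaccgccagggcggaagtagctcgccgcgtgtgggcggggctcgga

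A RefSeq start was listed for 65 of the 85 members, with 250 bases before and 50 from each start. A C followed by 4 pyrimidines stood exactly at the start in 15 of these 65 members (23.1%), against 3.01% of all 27025 genes with a listed start. CCGGAAG lay within the window on either strand in 25 of the 65 members (38.5%), against 9.93% of all genes. The octamer AAGATGGC, the letters of a YY1 site, was present on either strand in 6 members (9.23%), against 3.19% of all genes. These counts depend on the annotated start base, and Rps27l has 2 listed starts. The absence of a match says only that these letters were not in the window.

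These genes are among the most abundant messages: 40 of the 100 highest genes were members in the table of H-Ras(G12V) and mCherry libraries and 43 of 100 in the other. The median member mean was 755 FPKM in H-Ras(G12V) and 503 FPKM in mCherry cultures, and 854 FPKM in etoposide and 544 FPKM in DMSO cultures. Rpl41, the shortest ribosomal protein, had the highest mean in 3 groups, with 3251 FPKM in H-Ras(G12V), 2132 FPKM in mCherry and 1918 FPKM in DMSO cultures.

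Taken as a sum, the family held a larger share of the measured messages in each H-Ras(G12V) library than in any mCherry library. Their summed FPKM was 12.2%, 13.1% and 13.3% of all FPKM in H-Ras(G12V) libraries 1 to 3, against 10.9%, 10.3% and 7.91% in mCherry libraries 1 to 3. The groups did not overlap, and mCherry library 3 was the lowest by more than the whole range of the H-Ras(G12V) group. The means were 12.8% ± 0.582 in H-Ras(G12V) and 9.70% ± 1.59 in mCherry cultures (SD, n = 3 each), and the exact two-sided permutation test gave p = 0.1, the smallest value that 3 against 3 libraries allow. The large-subunit share was 7.28% ± 0.298 in H-Ras(G12V) and 5.54% ± 0.899 in mCherry cultures. The small-subunit share was 5.56% ± 0.285 in H-Ras(G12V) and 4.16% ± 0.687 in mCherry cultures. Their ratio was 1.31 ± 0.0143 in H-Ras(G12V) and 1.33 ± 0.00905 in mCherry cultures (p = 0.2, exact permutation). In bulk cultures a changed number of cells of a type and a changed amount of RNA per cell cannot be told apart.

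In the etoposide table the family share was 19.2%, 14.3% and 8.32% in etoposide libraries 1 to 3, against 8.33%, 9.51% and 10.7% in DMSO libraries 1 to 3. The first 2 etoposide libraries were above every DMSO library, and the third was just under the lowest. The means were 14.0% ± 5.47 in etoposide and 9.51% ± 1.18 in DMSO cultures (SD, n = 3 each; exact permutation p = 0.4). The large-to-small ratio was 1.34 ± 0.0537 in etoposide and 1.35 ± 0.0227 in DMSO cultures (exact permutation p = 0.9). The mitochondrial ribosomal proteins, which serve the separate ribosomes of the mitochondrion, held a share that overlapped between the groups in both tables. It was 0.732% ± 0.0118 in H-Ras(G12V) and 0.688% ± 0.0531 in mCherry cultures (p = 0.4, exact permutation), and 0.707% ± 0.0650 in etoposide and 0.690% ± 0.0748 in DMSO cultures (p = 0.9, exact permutation).

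**Figure D1:**
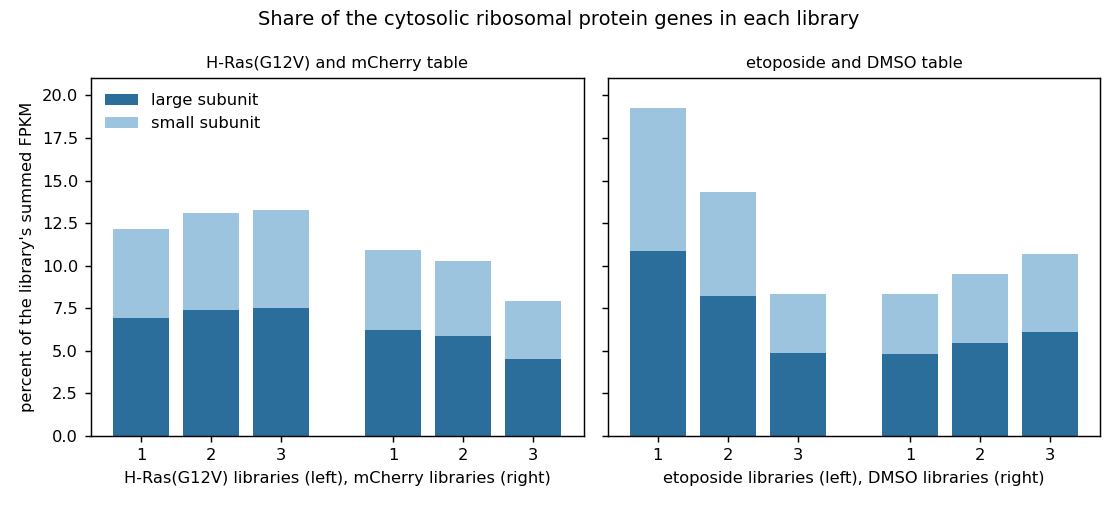
Summed FPKM of the 85 members as a percent of all FPKM in each of the 12 libraries, split into large (dark) and small (light) subunit, with 1 bar per library. The 3 H-Ras(G12V) bars reach 12.2% to 13.3% and the 3 mCherry bars 7.91% to 10.9%, while etoposide libraries 1 and 2 reach 19.2% and 14.3% and etoposide library 3 (8.32%) lies beside the DMSO libraries (8.33% to 10.7%).

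Within a library the members moved nearly as a block. Each member was expressed as log2(FPKM + 1) minus its mean in the 3 control libraries of its table. The median over members was 0.46, 0.62 and 0.62 in H-Ras(G12V) libraries 1 to 3, against 0.21, 0.08 and -0.28 in mCherry libraries 1 to 3. It was 1.26, 0.75 and -0.28 in etoposide libraries 1 to 3, against -0.27, -0.07 and 0.35 in DMSO libraries 1 to 3. In etoposide libraries 1 and 2, 84 of 85 members were above their DMSO mean, and in etoposide library 3, 82 were below it. In each control library the direction was also shared by most members: 84 of 85 lay above the mean in mCherry library 1 and 81 of 85 below it in mCherry library 3. The median over all tested genes stayed between -0.02 and 0.20 in these 12 libraries.

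**Figure D2:**
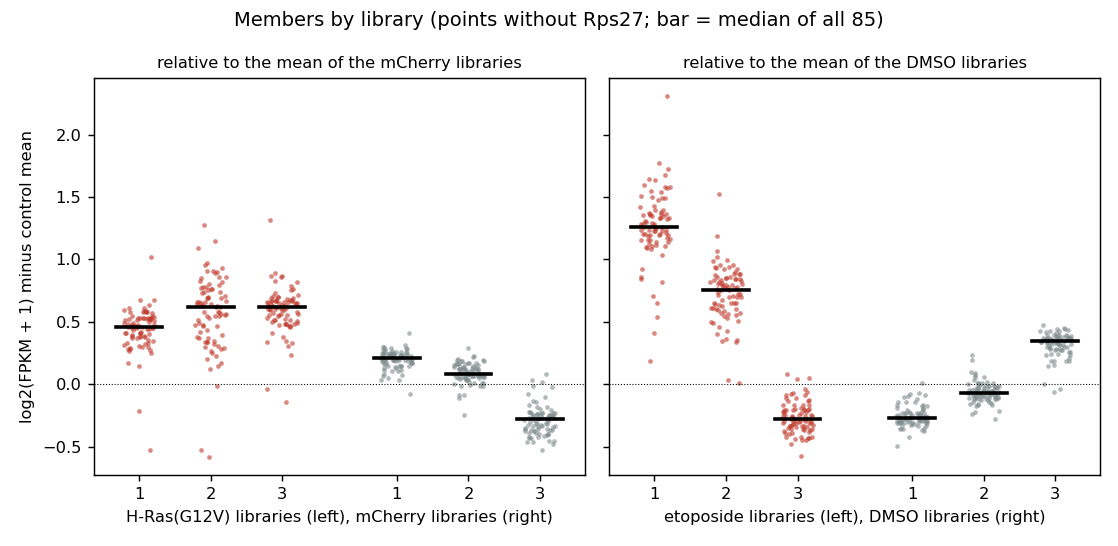
Deviation of each member (point) from the mean of the 3 control libraries on the log2(FPKM + 1) scale, by library, with a bar at the median of all 85 members. H-Ras(G12V) medians (0.46 to 0.62) lie above mCherry medians (-0.28 to 0.21), and the etoposide medians of 1.26, 0.75 and -0.28 are wider apart than the DMSO medians (-0.27 to 0.35).

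Member by member, H-Ras(G12V) cultures had 26 of the 85 genes called higher and 0 called lower, where 10.3% of all 12724 tested genes were called higher and 6.67% lower. A gene was called where limma on log2(FPKM + 1), adjusted by Benjamini-Hochberg over all tested genes, gave a p under 0.05. The calls fell on 17 of 51 large-subunit and 9 of 34 small-subunit genes. Fold changes of the called members, as ratios of mean FPKM, ran from 1.46 to 2.02. The log2 fold change was positive in 82 members, with a median of 0.56 over the 85 members, against 0.05 over all tested genes. The 3 H-Ras(G12V) libraries lay wholly above the 3 mCherry libraries for 72 members, against 23.7% of all tested genes. The number of calls turned on single libraries. It was 1, 1 and 0 without H-Ras(G12V) library 1, 2 or 3, where 2.37%, 5.13% and 3.4% of all genes were called higher. It was 2 and 0 without mCherry library 1 or 2 (3.06% and 2.98% of all genes), and 55 without mCherry library 3, where 25.4% of all genes were called higher and 19.5% lower. All 26 calls were among those 55. Like etoposide library 3 below, mCherry library 3 is singled out by its expression and not by a label. The 2 controls left without it correlated at 0.997, so the control spread is then that of 2 nearly alike libraries. With mCherry libraries 1 and 2 averaged, 1 member was called higher (3.08% of all genes). The median log2 fold change was 0.42 without mCherry library 3 and between 0.53 and 0.67 without any other single library. With libraries scaled to a common FPKM sum the median was 0.42 and 8 members were called higher (6.73% of all genes were called higher and 10.5% lower). When scaled by median of ratios it was 0.49 and 16 were called (8.22% of all genes higher and 8.52% lower).

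With etoposide, 0 of the 85 members were called in either direction, where 0.0% of 12371 tested genes were called higher and 0.453% lower. The lowest adjusted p of a member was 0.35 by limma, and 2 members had an unadjusted p under 0.05, Rps27l and Rps27, of which Rps27 is listed at 0 in 4 of the 6 libraries. The log2 fold change was positive in 84 members with a median of 0.59, against 0.09 over all tested genes. Its standard error had a median of 0.42, against 0.17 in the H-Ras(G12V) comparison. Etoposide libraries 1 and 2 were both above every DMSO library in 79 members, a pattern seen in 36.0% of all tested genes. The 6 others were Rpl7l1, Rpl22, Rpl22l1, Rpl27, Rps27 and Rps28. With all 3 libraries, the groups were apart for 0 members, against 7.64% of all tested genes higher and 8.17% lower. Etoposide library 1 exceeded library 2 in 82 members, and library 2 exceeded library 3 in 84. Etoposide library 3 was under the highest DMSO library in all 85 members and under every DMSO library in 51. Without etoposide library 3, 58 members were called higher and 0 lower (18.4% and 13.4% of all tested genes), with a median log2 fold change of 1.01. Without etoposide library 1 or 2 the median was 0.24 or 0.50 and 0 members were called (0.00814% and 0.0% of all genes higher). Without DMSO library 1, 2 or 3, 0 members were called either (0.00807%, 0.00811% and 0.0% of all genes higher). Etoposide library 3 is singled out by its expression and not by a label, so these calls describe the 5 libraries left.

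**Figure D3:**
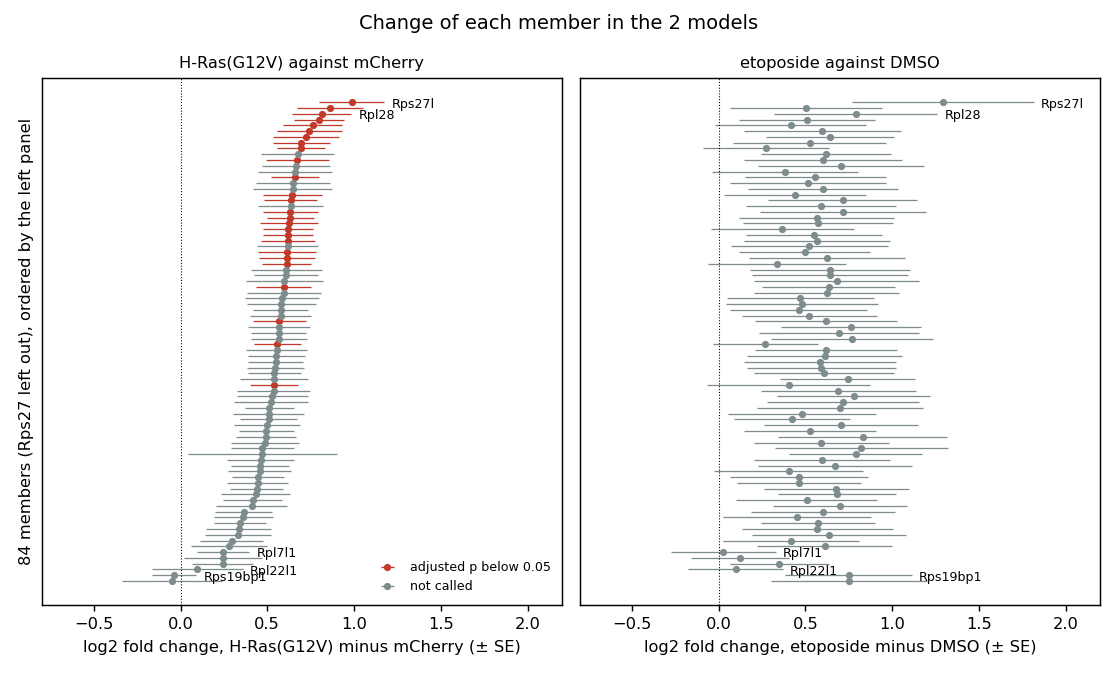
Log2 fold change (± SE) of 84 members on the log2(FPKM + 1) scale, H-Ras(G12V) minus mCherry on the left and etoposide minus DMSO on the right, in the order of the left panel, with called members in red. The 26 called members sit at 0.54 to 0.99 on the left, and the right panel has a similar centre (median 0.59) with longer error bars (median SE 0.42 on the right and 0.17 on the left).

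The stalk proteins of the large subunit recruit the translational GTPases. Rplp0, the base of the stalk, had 659, 860.5 and 745 FPKM in H-Ras(G12V) libraries 1 to 3, against 557, 516 and 368 FPKM in mCherry libraries 1 to 3. The groups did not overlap and the log2 fold change was 0.67 ± 0.19 (SE), but the limma adjusted p of 0.057 missed the threshold. Without mCherry library 3 the change of Rplp0 was 0.48 with a limma adjusted p of 0.019. In that setting 25.4% of all tested genes were called higher, on 2 nearly alike controls. Its partners Rplp1 and Rplp2 had log2 fold changes of 0.57 and 0.46, also without overlap and without a call. In etoposide libraries Rplp0 was at 1619, 969 and 421 FPKM, against 432, 504 and 700.2 FPKM in DMSO libraries, so that library 3 lay under every DMSO library.

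Rpl5 and Rpl11 assemble with the 5S ribosomal RNA before they join the large subunit. Rpl11 had 290, 368 and 346 FPKM in H-Ras(G12V) libraries, against 249.8, 229.8 and 179 FPKM in mCherry libraries, and was called (log2 fold change 0.61 ± 0.17, limma adjusted p = 0.049). Rpl5 had 239, 238 and 271 FPKM in H-Ras(G12V) libraries, against 219, 212 and 162 FPKM in mCherry libraries, with a log2 fold change of 0.34 and an adjusted p of 0.16. Every H-Ras(G12V) library was above every mCherry library for both genes. In etoposide libraries Rpl11 was at 577, 410.4 and 222 FPKM, against 222, 251 and 336 FPKM in DMSO libraries. Rpl5 was at 387, 294 and 172 FPKM with etoposide, against 182, 188 and 173 FPKM with DMSO. Etoposide libraries 1 and 2 exceeded all DMSO libraries for both, and library 3 did not. Without mCherry library 3, where 25.4% of all tested genes were called higher, Rpl11 was called (0.47, adjusted p = 0.018) and Rpl5 was not (0.21, adjusted p = 0.14). Without any other single library Rpl11 was not called, and at a common FPKM sum its adjusted p was 0.084. Of the called members described here, only Rps27l, Rpl28 and Rpl27a were called without a single library other than mCherry library 3.

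The partners of this pair outside the ribosome were taken as a list of 8 tested genes of the p53 axis and of 5S particle assembly. Of these, 5 were called higher and 0 lower in H-Ras(G12V) cultures, beside 10.3% and 6.67% of all tested genes. Mdm2 had 35.1, 27.1 and 34.4 FPKM in H-Ras(G12V) libraries, against 18.2, 20.1 and 24.99 FPKM in mCherry libraries (log2 fold change 0.59, limma adjusted p = 0.0499). Cdkn1a, the cell cycle inhibitor p21 and a p53 target, had 134, 172 and 202 FPKM in H-Ras(G12V) libraries, against 38.2, 34.0 and 74.0 FPKM in mCherry libraries (1.84 ± 0.30 on the log2 scale, limma adjusted p = 0.011). Trp53, Rrs1 and Gnl3 were also called. In etoposide cultures 0 of the 8 were called. Mdm2 stood at 182, 189 and 22.2 FPKM in etoposide libraries 1 to 3, against 17.7, 15.3 and 13.1 FPKM in DMSO libraries, with library 3 far below the other etoposide libraries but above every DMSO library. At a common FPKM sum 2 of the 8 were called with H-Ras(G12V), beside 6.73% of all tested genes called higher. On leaving out a single library of that table the count was 0 to 5. It was 5 without mCherry library 3, where 25.4% of all tested genes were called higher. With etoposide library 3 left out, 4 of the 8 were called higher, beside 18.4% of all tested genes. The list median was 0.50 in the H-Ras(G12V) comparison and 0.79 in the etoposide comparison.

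Around the peptidyl transferase centre and the exit tunnel of the large subunit, changes were of like size. Rpl8 was called (0.65 ± 0.17, limma adjusted p = 0.043) among Rpl3, Rpl8 and Rpl10, whose log2 fold changes were 0.51 to 0.65. Rpl23a, which marks the tunnel rim where the signal recognition particle docks, was called among the 6 tunnel proteins Rpl4, Rpl17, Rpl23a, Rpl26, Rpl35 and Rpl39. It had 1761, 1631 and 2028 FPKM in H-Ras(G12V) libraries, against 1305, 1249 and 1001 FPKM in mCherry libraries (0.61 ± 0.16, adjusted p = 0.044). The other 5 ran from 0.33 for Rpl35 to 0.57 for Rpl26. With etoposide the same 6 genes had a median of 0.65 and none was called.

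Among core genes, large called changes fell on several large-subunit proteins. Rpl28, whose start is shown above, had 1052, 1227 and 1199 FPKM in H-Ras(G12V) libraries, against 769.7, 696 and 532 FPKM in mCherry libraries (0.81 ± 0.17, limma adjusted p = 0.023). Rpl27a had 399, 454 and 457 FPKM in H-Ras(G12V) libraries, against 281, 262 and 213 FPKM in mCherry libraries (0.80 ± 0.14, adjusted p = 0.015). Of the 6 single libraries left out in turn, both genes were called without mCherry library 1 and without mCherry library 3, and without no other. For both genes the lowest H-Ras(G12V) library exceeded the highest mCherry library. Rpl13 and Rpl18 were called at 0.76 and 0.74. In etoposide libraries Rpl28 was at 1840, 1169 and 493 FPKM, against 500.04, 546 and 748 FPKM in DMSO libraries, and without etoposide library 3 its log2 fold change was 1.32 with an adjusted p of 0.014.

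On the small subunit, Rps6, the protein phosphorylated by S6 kinase downstream of mTORC1, was called. It had 408, 443 and 460.1 FPKM in H-Ras(G12V) libraries, against 322, 293 and 242 FPKM in mCherry libraries (0.62 ± 0.14, limma adjusted p = 0.031). Rps27a, which is made fused to ubiquitin, had 769, 723 and 783 FPKM in H-Ras(G12V) libraries, against 574, 515 and 407 FPKM in mCherry libraries (0.62 ± 0.16, adjusted p = 0.039). Both were called without overlap between the groups. Rps14 rose by 0.63 ± 0.13 (adjusted p = 0.024). The proteins of messenger entry and decoding, Rps2, Rps3 and Rps23, had log2 fold changes of 0.33 to 0.59 and none was called. Of 9 genes that are mutated in human Diamond-Blackfan anaemia, a failure of red cell production, 1 was called (11.1%), Rpl11, beside 10.3% of all tested genes, and Rps19 of this group had 0.49 and an adjusted p of 0.090. In etoposide libraries Rps19 was at 2453, 1441 and 649 FPKM, against 630.03, 630 and 1029 FPKM in DMSO libraries, which without library 3 gave a log2 fold change of 1.34 and an adjusted p of 0.020. Rps2 was at 5804, 3073 and 1516 FPKM in etoposide libraries, against 1367, 1609 and 2231 FPKM in DMSO libraries, the highest mean level of any member in the etoposide group at 3465 FPKM.

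Rps27l, a p53-regulated relative of Rps27, had the highest log2 fold change of all 85 members in both models. It had 377, 286 and 461 FPKM in H-Ras(G12V) libraries, against 189, 171 and 196 FPKM in mCherry libraries (0.99 ± 0.19, limma adjusted p = 0.017). Every H-Ras(G12V) library exceeded every mCherry library, and without mCherry library 3 the change was 1.03 with an adjusted p of 0.0040. In that setting 25.4% of all tested genes were called higher. Rps27l was also called without H-Ras(G12V) library 2 (adjusted p = 0.022), but not without H-Ras(G12V) library 1 or 3 or mCherry library 1 or 2, where the adjusted p reached 0.074. In etoposide libraries it had 975, 568 and 203 FPKM, against 161, 176 and 267 FPKM in DMSO libraries (1.29 ± 0.52, adjusted p = 0.36). Libraries 1 and 2 were far above all DMSO libraries, and library 3 lay among them. Without etoposide library 3 the change was 1.92 ± 0.33 with an adjusted p of 0.0029.

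The core gene Rps27 cannot be read by itself in these tables. It was listed at 0, 12.7 and 14.5 FPKM in H-Ras(G12V) libraries, against 13.4, 0 and 56.9 FPKM in mCherry libraries, and at 0 in all 3 etoposide libraries, against 27.7, 6.76 and 0 FPKM in DMSO libraries. Its copy Rps27rt, on another chromosome, was listed at 1641, 1318 and 1747 FPKM in H-Ras(G12V) libraries, against 1336, 1152 and 853 FPKM in mCherry libraries. Of the 325 windows of 50 bases in the Rps27rt transcripts of GENCODE M21, 296 (91.1%) also occur in Rps27, so the division of fragments between the 2 genes is uncertain and no fold change is given for Rps27. Rps27rt had a log2 fold change of 0.51 (limma adjusted p = 0.13) in the H-Ras(G12V) comparison. Relative to Rps27rt, Rps27l was at -2.08 ± 0.145 on the log2 scale in H-Ras(G12V) and -2.56 ± 0.382 in mCherry cultures (SD, n = 3 each; exact permutation p = 0.3). The same ratio was -1.08 ± 0.385 in etoposide and -1.90 ± 0.215 in DMSO cultures, without overlap (p = 0.1, exact permutation and the smallest possible). This pair was not among the planned ones, and its denominator Rps27rt has the uncertain division of fragments given above. Rpl32l and Rpl37rt share 19.4% and 35.0% of such windows with Rpl32 and Rpl37 and are uncertain for the same reason.

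A further 4 members had small changes. Rpl22, Rpl22l1, Rpl7l1 and Rps19bp1 had log2 fold changes of 0.24, 0.10, 0.25 and -0.04 in the H-Ras(G12V) comparison, all with overlapping groups and adjusted p-values from 0.28 to 0.87. Rpl22 had 90.1, 96.6 and 103 FPKM in H-Ras(G12V) libraries, against 96.0, 99.5 and 56.0 FPKM in mCherry libraries. Rpl22l1, a relative of Rpl22 that Rpl22 represses in mouse, had 491, 245 and 451 FPKM in H-Ras(G12V) libraries, against 374, 354 and 334 FPKM in mCherry libraries. H-Ras(G12V) library 2 alone was below the controls for Rpl22l1. Rps19bp1 had 32.7, 42.2 and 37.1 FPKM in H-Ras(G12V) libraries, against 39.0, 37.8 and 37.5 FPKM in mCherry libraries. When each library was scaled to the family median, Rps19bp1 was the 1 member called, lower (33.5% of all genes were then called lower and 2.33% higher), and 0 were called higher. Under the same scaling 0 members were called with etoposide (0.0% of all genes higher and 0.314% lower). The log2 ratio of Rpl22l1 to Rpl22 was 1.96 ± 0.567 in H-Ras(G12V) and 2.11 ± 0.393 in mCherry cultures, and 1.22 ± 0.104 in etoposide and 1.24 ± 0.362 in DMSO cultures. The ratios of Rpl36al to Rpl36a and of Rpl7l1 to Rpl7 differed from control by -0.17 and -0.24 with H-Ras(G12V) and by -0.37 and -0.57 with etoposide on the log2 scale. With 3 against 3 libraries the smallest exact p is 0.1, so no pair could pass, and these ratios are given as values only.

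**Figure D4:**
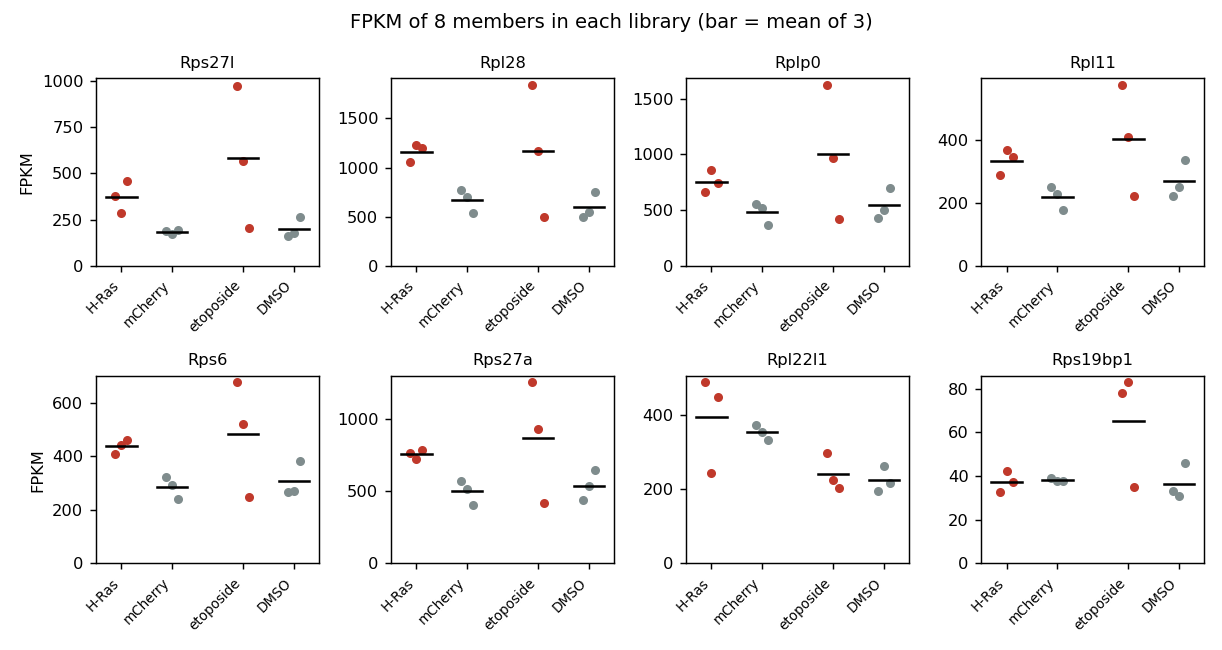
FPKM of 8 members in each library (points, libraries 1 to 3 from left to right within a group, bar at the mean of 3), with each model's treated group left of its control. Rps27l to Rps27a show the H-Ras(G12V) points above the mCherry points and the third etoposide point among or below the DMSO points, while Rpl22l1 overlaps in both models and Rps19bp1 is apart only for etoposide libraries 1 and 2.

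The 2 models share no control libraries, and their changes were set against each other by an interaction contrast, the H-Ras(G12V) change minus the etoposide change. Each model is 1 table with its own kind of control, so differences between models and between tables cannot be told apart. The sources do not say whether the tables were normalised together. The contrast also pools unlike spreads (median SE 0.17 with H-Ras(G12V) and 0.42 with etoposide). None of the 85 members was called by this contrast (2.5% of 12179 tested genes were called higher and 0.279% lower), and 0 members had an unadjusted limma p under 0.05. The median over members was -0.03. The lowest were Rpl32l at -0.80 and Rps19bp1 at -0.79, and the highest, apart from Rps27, was Rpl27 at 0.42. The standard errors of these 3 values were 0.40 to 0.58. Without etoposide library 3 the median was -0.44, and 2 members were called lower, Rps19bp1 and Rpl32l (11.6% of all tested genes were called lower and 9.75% higher). Rps19bp1 was at 78.2, 83.2 and 34.9 FPKM in etoposide libraries, against 33.0, 30.7 and 45.8 FPKM in DMSO libraries, and overlapped its controls in the H-Ras(G12V) comparison above. Of the 26 members called with H-Ras(G12V), 17 (65.4%) were also among the 58 called with etoposide without library 3, beside 68.2% of all 85 members. These 17 are 29.3% of the 58. Across 76 core members without Rps27, the log2 fold changes of the 2 models had a Pearson r of 0.11, and of 0.23 without etoposide library 3; members of a table share their libraries and are not independent.

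Ribosome components whose names fall outside the rule include Fau, made as a fusion to a ubiquitin-like protein, and Rack1, a scaffold on the small subunit. Fau had log2 fold changes of 0.46 with H-Ras(G12V) and 0.55 with etoposide. Rack1 had 0.65 with H-Ras(G12V) and 0.61 with etoposide, and neither gene was called in either comparison. For the translation factors below, 10.3% of all tested genes were called higher with H-Ras(G12V) and 6.67% lower. Translation factors whose messages carry a TOP element had a median of 0.32 with H-Ras(G12V), with 2 of 16 called higher and 0 lower. The 2 called were Tpt1 (0.52, limma adjusted p = 0.047) and Eef1d (0.52, adjusted p = 0.046). Eef1a1, the factor that delivers aminoacyl-tRNA, had 3304, 3523 and 3911 FPKM in H-Ras(G12V) libraries, against 3298, 3236 and 2212 FPKM in mCherry libraries (0.32, adjusted p = 0.30). The other initiation factors had a median of 0.16, with 1 of 28 called higher, Eif3i. At a common FPKM sum 0 genes of either list were called, and the same held without any single library other than mCherry library 3. Without that library, 2 of 16 and 5 of 28 were called higher (25.4% of all tested genes) and 0 and 2 lower (19.5%). With etoposide the TOP translation factors had a median of 0.46 and the initiation factors one of 0.19, with 0 called. Leaving out etoposide library 3 gave 7 of 16 and 4 of 28 called higher, beside 18.4% of all tested genes.

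Of 65 ribosome biogenesis factors, 5 were called higher and 0 lower with H-Ras(G12V), beside 10.3% of all tested genes called higher, at a median of 0.20, among them Mrto4, Imp4 and Nop9. Of 15 RNA polymerase I genes, 3 were called higher (Polr1d, Polr1e and Znrd1) at a median of 0.13. At a common FPKM sum 0 genes of either list were called, and the polymerase I median was -0.01. On leaving out 1 library of that table, the biogenesis count was 0 to 9 and the polymerase I count 0 to 3. Both were highest without mCherry library 3, where 25.4% of all tested genes were called higher. With etoposide these lists had medians of 0.48 and 0.33 and no call. Without etoposide library 3 they had 27 of 65 and 5 of 15 called higher, at 0.75 and 0.52, beside 18.4% of all tested genes. The 78 mitochondrial ribosomal protein genes had a median of 0.21 with H-Ras(G12V), and 8 were called higher, beside 10.3% of all tested genes. Their count was 0 at a common FPKM sum and 0 to 27 on leaving out a single library of that table. The count of 27 came without mCherry library 3, where 25.4% of all tested genes were called higher. With etoposide their median was 0.12 and 0 were called. Of 14 genes of ribosome quality control and ribosome stress, 1 was called higher with H-Ras(G12V), Map3k20, at a list median of 0.05 (0 at a common FPKM sum and 0 or 1 on leaving out a single library), and 0 were called with etoposide.

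Of 28 genes of mTOR, MYC and TOP control, 3 were called higher (Eif4ebp1, Myc and Eif4ebp2) and 2 lower (Mycl and Tsc1) with H-Ras(G12V). These counts are near the shares of all tested genes, 10.3% higher and 6.67% lower. At a common FPKM sum 2 were called higher and 2 lower (6.73% and 10.5% of all tested genes). Without mCherry library 3 the counts were 8 and 4 (25.4% and 19.5% of all tested genes), and without any other single library 2 and 0. Myc, a transcription factor that drives ribosomal protein genes, had 28.2, 32.6 and 29.6 FPKM in H-Ras(G12V) libraries, against 14.3, 14.0 and 10.6 FPKM in mCherry libraries (1.16 ± 0.15, limma adjusted p = 0.0052). Eif4ebp1, the translation repressor inactivated by mTORC1, had 24.7, 33.1 and 30.2 FPKM in H-Ras(G12V) libraries, against 13.0, 11.1 and 8.93 FPKM in mCherry libraries (1.34 ± 0.17, adjusted p = 0.0058). Mycl fell by 1.38 (adjusted p = 0.045), with 6.5, 5.01 and 6.2 FPKM in H-Ras(G12V) libraries, against 22.5, 24.5 and 8.48 FPKM in mCherry libraries. Neither Larp1 nor Mtor was called (-0.02 and -0.08). With etoposide none of the 28 was called, and 5 were called higher and 3 lower without etoposide library 3 (18.4% and 13.4% of all tested genes). Eif4ebp1 was at 277, 187 and 25.3 FPKM in etoposide libraries, against 35.2, 31.0 and 53.3 FPKM in DMSO libraries, and Myc at 40.5, 20.5 and 7.02 FPKM, against 11.8, 11.0 and 11.6 FPKM. Both had etoposide library 3 below every DMSO library.

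Among the 65 members with a listed start, TOP starts did not mark the larger changes. The 15 with a TOP start had a median log2 fold change of 0.46 with H-Ras(G12V), against 0.55 for the other members with a start, and 5 of the 18 called members with a start carried one. With etoposide the medians were 0.55 with a TOP start and 0.61 without. The 25 members with CCGGAAG had medians of 0.54 with H-Ras(G12V) and 0.57 with etoposide, against 0.55 and 0.62 without it. None of the 6 members with AAGATGGC was called, and their medians were 0.35 and 0.29. These 6 include Rps27, which cannot be read by itself and lowers both medians. The others ran from 0.24 to 0.51 with H-Ras(G12V) and from 0.03 to 0.70 with etoposide. The members with a TOP start include Rps27, Rps27rt and Rpl32l, whose values are uncertain. These are descriptions of overlapping groups of members, and a match is not a shown binding site.

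Several marker sums also differed between the groups, and not always in the direction of the family. With H-Ras(G12V), 10.3% of all tested genes were called higher and 6.67% lower. Of the lists of other cell types, the oligodendrocyte lineage markers were called higher in 7 of 11 tested genes with H-Ras(G12V), and summed to 996 to 1223 FPKM in H-Ras(G12V) libraries, against 244 to 832 FPKM in mCherry libraries. The fibroblast and mural markers were called lower in 10 of 12, and summed to 64.8 to 96.4 FPKM in H-Ras(G12V) libraries, against 231 to 346 FPKM in mCherry libraries. Neural progenitor markers were called higher in 3 of 9 (5314 to 6270.2 FPKM in H-Ras(G12V), against 2880 to 3615 FPKM in mCherry libraries) and proliferation genes in 15 of 18. Astrocyte markers were called higher in 3 of 12 and summed to 2857 to 4008 FPKM in H-Ras(G12V) libraries, against 1339 and 1346 FPKM in mCherry libraries 1 and 2 and 3529 FPKM in mCherry library 3, the control library with the lowest ribosomal protein share. Neuron markers were called lower in 3 of 18 and higher in 1. Microglia markers summed to at most 79.4 and endothelial markers to at most 5.67 FPKM in this table. These counts turned on single libraries as well. Without mCherry library 3, 11 of 11 oligodendrocyte lineage, 6 of 9 progenitor, 10 of 12 astrocyte and 18 of 18 proliferation genes were called higher, and 6 neuron markers higher and 9 lower. In that setting 25.4% of all tested genes were called higher and 19.5% lower. Without any other single library the counts called higher were 0 to 2 for the oligodendrocyte lineage, 2 or 3 for progenitors, 2 for astrocytes and 3 to 10 for proliferation, and 0 neuron markers were called. The fibroblast and mural markers had 9 or 10 called lower throughout.

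With etoposide, 0.453% of all tested genes were called lower and 0.0% higher. Oligodendrocyte lineage markers were called lower in 5 of 10 and summed to 78.0 to 220.1 FPKM in etoposide libraries, against 581 to 931 FPKM in DMSO libraries. Neural progenitor markers were called lower in 2 of 9 and summed to 540 to 997 FPKM, against 1909 to 2435 FPKM, and proliferation genes were called lower in 5 of 16. Astrocyte markers summed to 738 to 1175 FPKM in etoposide libraries, against 1316 to 2172 FPKM in DMSO libraries, with 0 of 11 called. Microglia markers summed to 144, 88.3 and 21.6 FPKM in etoposide libraries 1 to 3, against 7.77 to 77.6 FPKM in DMSO libraries. Fibroblast and mural markers summed to 170 to 697 FPKM in etoposide libraries, against 153 to 481 FPKM in DMSO libraries. Etoposide library 3 is singled out by its expression, and without it 13.4% of all tested genes were called lower and 18.4% higher. The counts called lower without etoposide library 3 were 8 of 10 for the oligodendrocyte lineage, 3 of 9 for progenitors (with 3 higher), 12 of 17 for proliferation (1 higher), 9 of 12 for astrocytes (1 higher) and 7 of 18 for neurons. Without any other single library they were 2 to 6, 0 or 1, 0 to 5, 0 and 0 for these lists. No marker listed in a table was at 0 in all 6 of its libraries. The oligodendrocyte lineage and progenitor sums lay above control in H-Ras(G12V) and below control in etoposide libraries, without overlap, and the ribosomal proteins had positive medians in both models. The part of cell composition in either result was not tested.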

How the data were processed

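Per the labels' protocols, oligo-dT beads selected the messenger RNA of each library. Per the file headers, the deposited values are FPKM by gene and library, in 1 table for each model and with 2 decimals. HISAT, Bowtie2, RSEM and the build mm9 are listed in the submitters' processing notes, with neither version nor role. Read counts were not used here, and depth is not given: steps between low values, read in genes of 1 GENCODE M21 transcript less 200 bases, gave a rough 14400000 to 15800000 fragments per library in the H-Ras(G12V) and mCherry table and 24100000 to 28000000 in the other, a guide to precision only.

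Groups were taken from titles and column names. The deposited FPKM were put on the log2(FPKM + 1) scale and tested two-sided with limma 3.58.1 (R 4.3.3, eBayes with trend). Genes entered if their table mean reached 1 FPKM, with Benjamini-Hochberg adjustment over all of them. Fold changes on this scale understate changes of low genes. The interaction contrast used all 12 libraries and genes at that level in both tables. Shares and ratios were tested by exact permutation (scipy 1.17.1). The fit was tested on simulated data. Alternatives were the pseudocount (0.1, 5), the level filter (none, 5), 3 rescalings, the replicate block, each library left out, mCherry libraries 1 and 2 averaged, and a single fit. The named members were 26 chosen by role, the 3 highest and 3 lowest changes of each comparison and the 6 largest called changes. Other members, named with their role group or as copies, and Eef1a1, Larp1, Mtor, Rrs1 and Gnl3 were chosen after their values were seen. Members and lists were chosen with earlier results of these data known. FPKM corrects for annotated length. Rps15a and Rps20, which had low values, have coding transcripts of up to 5179 and 3706 bases in GENCODE M21. The part of transcript length in their values was not tested. Promoters are RefSeq, GRCm38.p6, and were matched by symbol. No coordinates of the deposited tables were used. Some results named by these rules are not reported here.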

Additional observations from a re-analysis of the deposited data

Results flagged for a closer look

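The 2 members Rps19bp1 and Rpl32l were called lower by the interaction contrast once etoposide library 3 was left out. In that setting 11.6% of all tested genes were called lower and 9.75% higher. Etoposide library 3 was singled out by its expression and not by a label, so these calls describe only the libraries left. For Rps19bp1 the H-Ras(G12V) change minus the etoposide change was -1.18 on the log2 scale (limma adjusted p = 0.0090), against -0.79 (adjusted p = 0.34) with all 12 libraries. For Rpl32l it was -1.33 (adjusted p = 0.039), against -0.80 (adjusted p = 0.48) with all libraries. Rps19bp1 was at 78.2 and 83.2 FPKM in etoposide libraries 1 and 2, against 30.7 to 45.8 FPKM in DMSO libraries, and at 32.7 to 42.2 FPKM in H-Ras(G12V) libraries, against 37.5 to 39.0 FPKM in mCherry libraries. Rpl32l was at 27.3 and 20.1 FPKM in etoposide libraries 1 and 2, against 7.66 to 11.3 FPKM in DMSO libraries, and at 4.49 to 11.2 FPKM in H-Ras(G12V) libraries, against 6.43 to 8.6 FPKM in mCherry libraries. Fragments of Rpl32l cannot be fully told apart from those of Rpl32.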

How the results depend on the processing

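The count of 26 members called higher with H-Ras(G12V) was 27 and 26 at pseudocounts of 0.1 and 5 and 26 at a mean of at least 5 FPKM. It was 5 with no filter on low values (6.51% of all genes), 8 at a common FPKM sum, 16 with median-of-ratios scaling, 0 (and 1 lower) relative to the family median, 1 with mCherry libraries 1 and 2 averaged (3.08%) and 0 in a single fit of the 12 libraries (1.81%). Leaving out 1 library gave 0 to 55. The replicate numbers did not pair the libraries (correlations of same-numbered deviations -0.04, 0.03 and 0.12 in the H-Ras(G12V) table and -0.27, -0.17 and -0.15 in the other), and the replicate block gave 4 calls with H-Ras(G12V) (7.94% of all genes) and 0 with etoposide and for the interaction. The causes of these changes were not tested. With etoposide the count was 0 throughout, except for 58 without etoposide library 3 (range 0 to 58), and for the interaction 0 to 2 called lower. Member medians were 0.42 to 0.67 with H-Ras(G12V) and 0.24 to 1.01 with etoposide, and 0.011 and 0.022 relative to the family median, where they are near 0 by construction. The median of all genes with H-Ras(G12V), 0.05, became -0.07 at a common FPKM sum and -0.45 relative to the family median.

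Relative to the family median, members below the centre turn sign by construction: 44 of 85 changes were then positive with H-Ras(G12V) and 48 with etoposide. Among the members named here the sign turned with H-Ras(G12V) for Rpl10 (-0.034), Rpl13a (-0.043), Rpl17 (-0.014), Rpl22 (-0.31), Rpl22l1 (-0.46), Rpl3 (-0.048), Rpl35 (-0.22), Rpl39 (-0.19), Rpl4 (-0.12), Rpl5 (-0.21), Rpl7l1 (-0.29), Rplp2 (-0.099), Rps19 (-0.062), Rps2 (-0.083), Rps27rt (-0.048), Rps3 (-0.22), Rps4x (-0.014), Rpsa (-0.017), and with etoposide for Rpl11 (-0.074), Rpl13 (-0.16), Rpl22 (-0.44), Rpl22l1 (-0.47), Rpl27 (-0.30), Rpl27a (-0.063), Rpl3 (-0.15), Rpl35 (-0.0025), Rpl36al (-0.30), Rpl39 (-0.12), Rpl7l1 (-0.53), Rpl8 (-0.13), Rplp2 (-0.17), Rps14 (-0.0071), Rps27a (-0.0036), Rps27rt (-0.091), Rps6 (-0.021). At a common FPKM sum it turned for Rpl22l1 (-0.043) with H-Ras(G12V) and Rpl22l1 (-0.0087), Rpl7l1 (-0.078) with etoposide, and with median-of-ratios scaling for Rpl7l1 (-0.069) with etoposide. Leaving out 1 library turned the sign, within these ranges, of the ratio Rpl22l1 over Rpl22 (-0.38 to 0.17), Rpl22 (-0.021 to 0.39), Rpl22l1 (-0.089 to 0.41), Rpl32l (-0.36 to 0.21), Rps19bp1 (-0.13 to 0.054) with H-Ras(G12V), of the ratio Rpl22l1 over Rpl22 (-0.18 to 0.18), Rpl22 (-0.085 to 0.29), Rpl22l1 (-0.059 to 0.22), Rpl27 (-0.0010 to 0.59), Rpl7l1 (-0.13 to 0.26) with etoposide and of Rps2 (-0.84 to 0.13) for the interaction.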

Other observations

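The 3 H-Ras(G12V) libraries ordered the members differently. Library 2 was the highest of the 3 for 37 members and the lowest for 25, while library 3 was the highest for 45 and library 1 the lowest for 58. Over 82 members, the deviation of a library from the mean of the other libraries of its group had an SD of 0.150, 0.248 and 0.128 in H-Ras(G12V) libraries 1 to 3 on the log2 scale. Its rank correlation with the GC content of the transcript was -0.44, 0.48 and -0.39 in these libraries, and -0.15, -0.16 and 0.22 in mCherry libraries 1 to 3. The points of each correlation share a library, and the part of GC content in the member changes was not tested.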
